A study of Rattus norvegicus and Mus musculus and Macaca mulatta with 84 samples.

Results

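The integrated stress response genes examined here are Atf4, Atf5, Atf3, Ddit3, Trib3, Chac1, Asns, Sesn2, Nupr1 and Vldlr, chosen by symbol and followed in every liver RNA library of the series. The 10 genes stand among 81194 features in 2 RNA tables, 1 from rats and 1 from mice. All 10 were found and tested in the mouse table, and 9 in the rat table; Nupr1 was not analysed in rats. Of all features, 13640 of 32754 in rats and 14596 of 48440 in mice had a mean of at least 10 and were tested.

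Polyadenylated RNA of liver was sequenced from UCD-T2DM rats, a strain in which obesity and insulin resistance precede diabetes, and from C57BL/6J mice. The rats were prediabetic (n = 5) or had been diabetic for 2 weeks (n = 4), 3 months (n = 5) or 6 months (n = 6); their age, sex and treatment are not given in the labels. The mice belonged to an LNA29 treatment group (n = 5), named for a locked nucleic acid against the microRNA miR-29, or to its control group (n = 6). The dose, the duration and what the control mice received are not given in the labels. The prediabetic livers are the reference of every stage, so the stage comparisons share these 5 libraries and are not independent of each other. With no age given, age and the duration of diabetes cannot be told apart.

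Stress in the endoplasmic reticulum, lack of amino acids, viral RNA and lack of haem each activate a kinase that phosphorylates the translation factor eIF2. General protein synthesis then slows, while the messenger RNA of ATF4, a transcription factor, is translated more. ATF4 and its partners switch on genes of amino acid supply, redox defence and, if stress lasts, cell death. In liver the same programme is known from protein restriction, mitochondrial faults and fatty liver. Because ATF4 is controlled largely at translation, messenger RNA levels report the pathway's targets more directly than the activity of ATF4 itself.

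Trib3 and Chac1 are known as direct targets of this programme, and the promoter windows of the members were searched for the letters of its elements. A composite C/EBP-ATF element, searched as TGATGNAA on both strands, was present in the promoter windows of 3 of the 9 genes with an entry in the RefSeq table of rat promoters (build GRCr8, 250 bases before to 50 after the start). The same letters occurred in 3.98% of all 33469 windows. The matches were TTACATCA in Trib3, TTGCATCA in Chac1 and TTGCATCA in Nupr1. The element bound by CHOP with C/EBP, searched on both strands, occurred in 1 of the 9 windows, as TGCAATCCCC in Trib3, against 0.143% of all windows. Atf3 had no entry. The cAMP response element TGACGTCA, which ATF factors can bind, was found in 0 of the 9 and in 1.83% of all windows. A match describes letters, not a bound site. Trib3 and Chac1 are shown because both were called higher at 6 months of diabetes, Trib3 also at 3 months. The 250 bases before the starts of Trib3 (chr3:161275534-161275783, minus strand) and Chac1 (chr3:126795881-126796130, plus strand) are given 5′ to 3′, with the matches of both elements in capitals:

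Trib3: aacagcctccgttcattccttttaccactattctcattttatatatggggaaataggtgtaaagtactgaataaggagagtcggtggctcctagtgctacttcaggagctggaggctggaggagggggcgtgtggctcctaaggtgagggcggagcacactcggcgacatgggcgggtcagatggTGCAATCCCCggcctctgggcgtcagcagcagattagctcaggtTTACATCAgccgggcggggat

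Chac1: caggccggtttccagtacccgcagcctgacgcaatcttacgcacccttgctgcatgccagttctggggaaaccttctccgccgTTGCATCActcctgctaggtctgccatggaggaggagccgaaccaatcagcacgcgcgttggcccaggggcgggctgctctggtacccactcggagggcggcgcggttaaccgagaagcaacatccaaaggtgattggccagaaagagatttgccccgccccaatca

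In the Trib3 window the CHOP element began 65 bases before the start and the ATF element 21 bases before it, both closer to the start than the element of Chac1 at 167 bases.

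At 6 months of diabetes Atf4, Atf3, Trib3 and Chac1 rose and Atf5 and Sesn2 fell against prediabetic livers, while Ddit3, Asns and Vldlr did not pass the test. At 3 months Atf4 and Trib3 rose and Sesn2 fell. At 2 weeks no member passed. A change was called in limma at a Benjamini-Hochberg adjusted p under 0.05 over all features, and each change is a log2 difference computed after adding 1 to every value, a scale that shrinks the change of low genes. In all, 6 of 9 members were called at 6 months, where 21.1% of all features were (11% higher, 10% lower). At 3 months 3 of 9 were called, against 16.5% of all features (7.76% higher, 8.72% lower). At 2 weeks limma called 0 of 9 members and 0% of features. None of the members had an unadjusted p under 0.05 there, against 1077 of 13640 features.

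**Figure D1:**
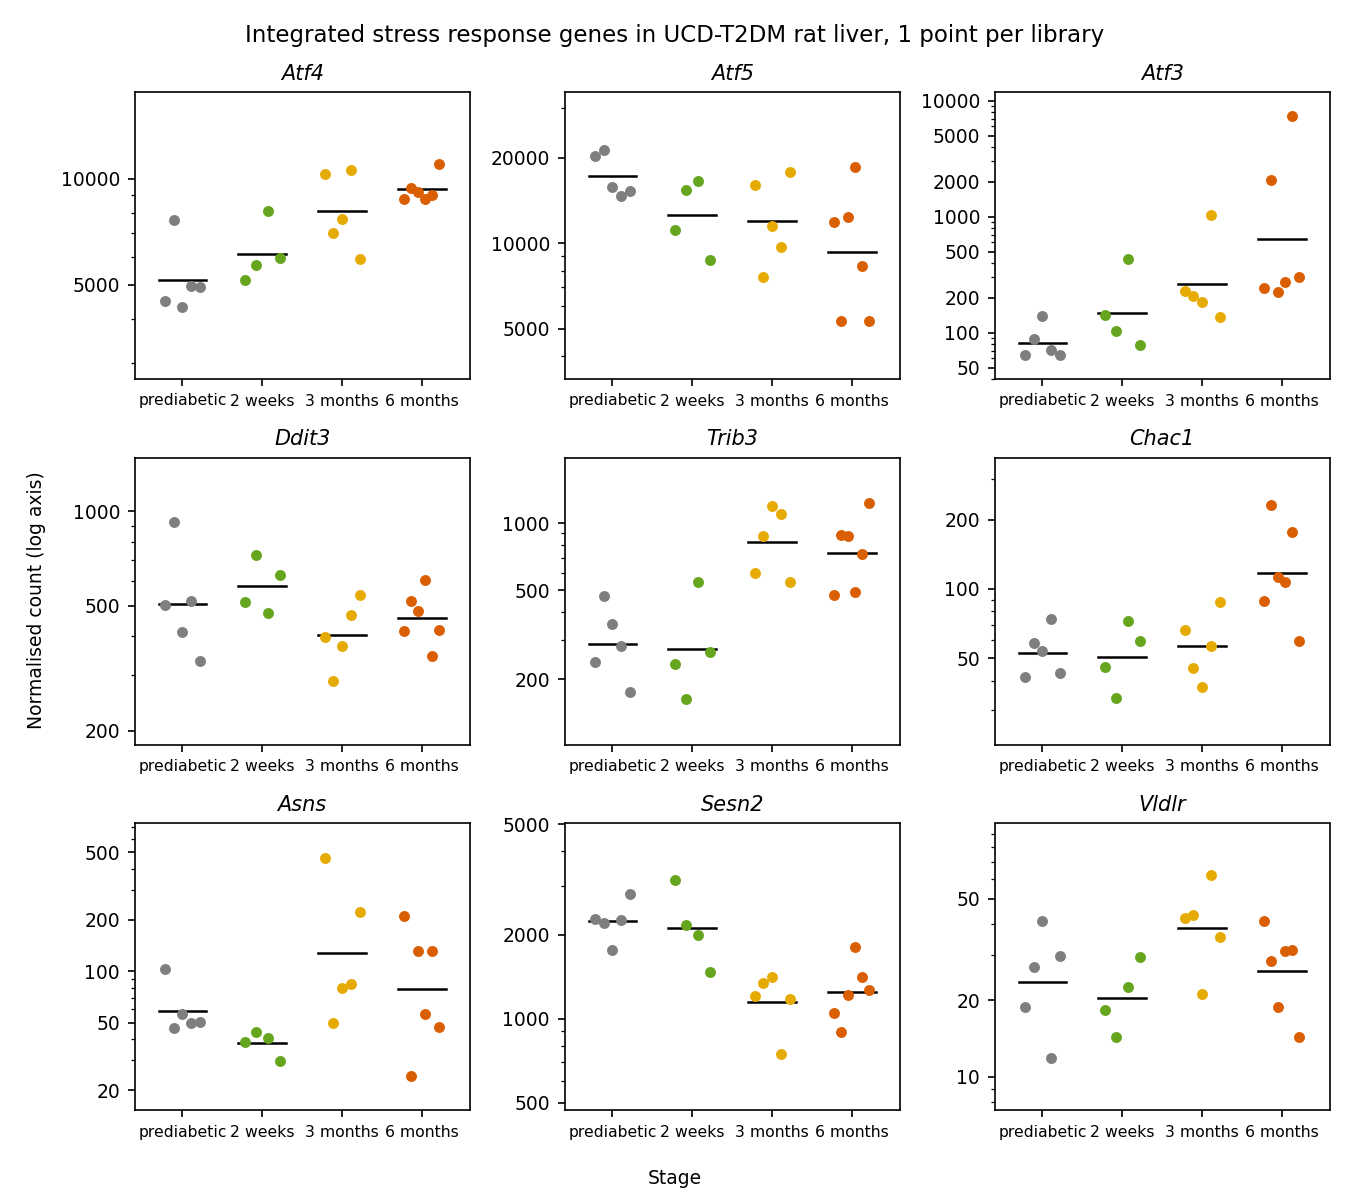
Normalised count (log axis) of each gene in every rat library, by stage. Each point is 1 library and each bar the geometric mean of its stage. All 6 libraries at 6 months lie above every prediabetic library for Atf4, Atf3 and Trib3. The 5 libraries at 3 months lie below every prediabetic library for Sesn2. How many of all features separate in this way was not counted.

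The values are normalised counts made by the authors, whose sum per rat library lay between 37620000 and 49860000 and per mouse library between 43340000 and 52750000. Gene lengths were not used, so levels are compared between libraries and not between genes. Libraries of a group correlated with each other at a mean r of at least 0.959 over the features tested, the lowest value being that of prediabetic replicate 2. Each library has a sample name of its own, but the labels do not state that each is a separate animal. A liver counted in the text means 1 library. Livers above or below a range are counted as a description, and the share of all features with such counts was not computed. The p-values cover the spread seen between libraries, whether biological or technical. The summed hepatocyte markers exceeded those of every other marker list in both tables, and the pancreatic acinar markers summed to at most 19.97 in any rat library. In bulk liver, fewer cells of a type and less RNA per cell cannot be told apart.

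Atf4 (ENSRNOG00000017801), the central factor of the response, had normalised counts of 4494, 7622, 4318, 4973 and 4913 in the prediabetic livers and 5152, 5692, 8099 and 5948 at 2 weeks. The 3-month livers had 10348, 7037, 7684, 10603 and 5907, and the 6-month livers ran from 8780 through a median of 9101 to 11045. The 6-month livers lay closer together than those of the other stages, the highest being 1.26 times the lowest. All 6 lay above the highest prediabetic liver, as did 3 of 5 at 3 months and 1 of 4 at 2 weeks. Atf4 was at 9369 ± 853 (SD, n = 6) at 6 months against 5264 ± 1347 (n = 5) before diabetes (log2 0.86, SE 0.16, limma adjusted p = 0.00138), a ratio of 1.81. At 3 months it was at 8316 ± 2074 (n = 5; log2 0.66, SE 0.17, limma adjusted p = 0.0134). Both calls held when any single library was left out.

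Atf3 (ENSRNOG00000003745), an ATF4 target that also responds to cytokines and injury, covered the widest range. It had 63.8, 88.7, 139, 70.7 and 64.4 in the prediabetic livers, 141, 103, 429 and 78.2 at 2 weeks and 229.8, 205, 185, 1037 and 137 at 3 months. At 6 months the livers had 243, 2066, 222, 272, 7430 and 302. All 6 exceeded the highest prediabetic liver, but 2 of them, replicates 2 and 5, stood far above the other 4. The highest was 33.5 times the lowest within that stage, against 2.18 times before diabetes. The log2 change was 2.96 (SE 0.77, limma adjusted p = 0.0112). Without replicate 5 it was 2.25 and still called. At 3 months it was 1.68 (SE 0.81, adjusted p = 0.160 in limma), although 4 of 5 livers lay above the prediabetic range; fitted with only those stages it was called (adjusted p = 0.0393).

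Atf5 (ENSRNOG00000020060), another ATF factor regulated through eIF2 and abundant in liver, moved the other way. It had 20292, 21340, 15792, 14638 and 15281 in the prediabetic livers and 11195, 15372, 16649 and 8713 at 2 weeks. At 3 months it had 16018, 7634, 11478, 9719 and 17896.5, and at 6 months it ran from 5335 through a median of 10109 to 18636. Of the 6-month livers 5 lay below the prediabetic range and 1, replicate 4, lay within it. The change at 6 months was -0.89 (SE 0.29, limma adjusted p = 0.0367), from 17468 ± 3105 to 10321 ± 5088. Its adjusted p was the highest of the 6 calls at 6 months. The call ended in 8 of 11 omissions of 1 library (adjusted p up to 0.0839), holding only without 6-month replicates 1, 3 or 4. It also ended in a fit with only the stages compared (adjusted p = 0.0579) and with no filter on low values (adjusted p = 0.05004). Atf5 at 3 months was at -0.53 (adjusted p = 0.245).

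Ddit3 (ENSRNOG00000006789), which encodes the pro-apoptotic factor CHOP, did not pass the test at any stage. It had 502, 925, 411, 517 and 333 before diabetes, 513, 727, 473 and 627 at 2 weeks and 399, 289, 373, 467 and 541 at 3 months. At 6 months it ran from 345 through a median of 450.1 to 603. The stages overlapped throughout. The change was 0.19 at 2 weeks, -0.32 at 3 months and -0.15 at 6 months (SE 0.24, 0.22 and 0.22), with adjusted p from 0.349 to 0.877. The 6-month change turned to 0.07 without prediabetic replicate 2.

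**Figure D2:**
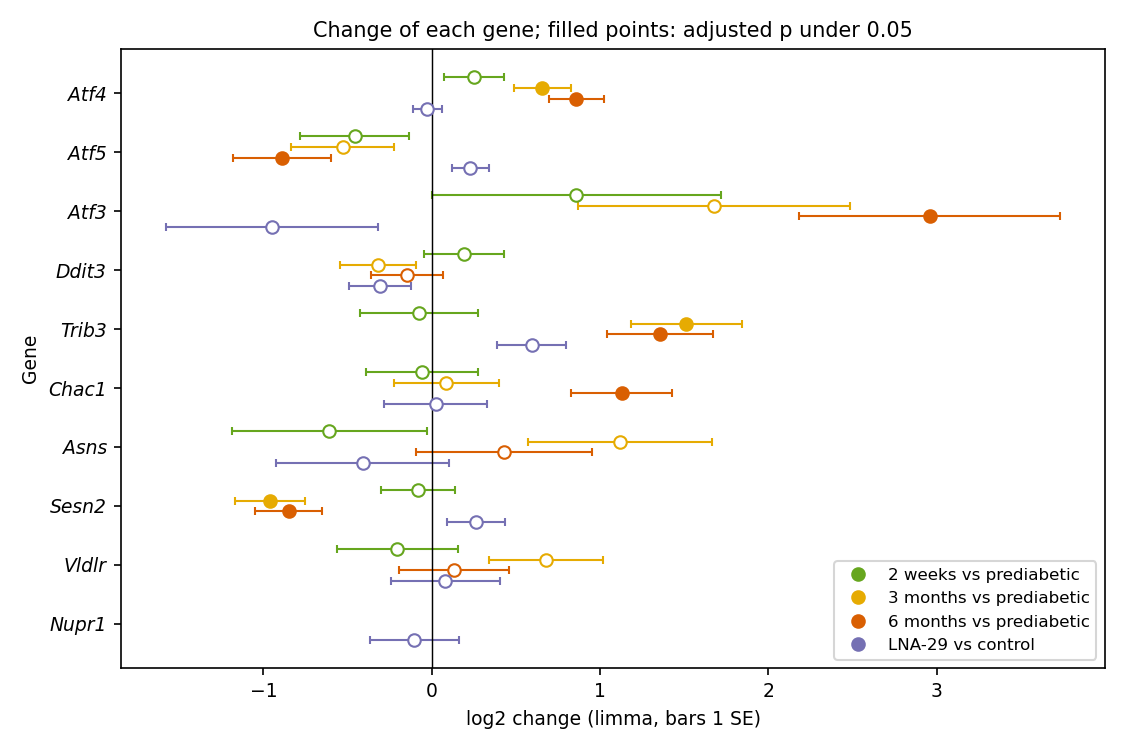
The log2 change of each gene (horizontal axis, bars 1 SE) at 2 weeks, 3 months and 6 months against prediabetic rats and for LNA-29 against control mice; filled points have an adjusted p under 0.05. Filled points appear only at 3 and 6 months in rats; Nupr1 has a value in mice only.

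Trib3 (ENSRNOG00000007319), a pseudokinase induced by ATF4 and CHOP that binds the insulin-signalling kinase Akt, had 239, 469, 354, 282 and 176 in prediabetic livers and 234, 163, 545 and 265 at 2 weeks. It had 599, 872, 1196, 1093 and 547 at 3 months, and at 6 months it ran from 475 through a median of 801 to 1227. Each of the 11 livers at 3 and 6 months exceeded every prediabetic liver, while 3 of the 4 livers at 2 weeks stayed at or below the top of the prediabetic range. Trib3 was at 862 ± 289 at 3 months (log2 1.51, SE 0.33, limma adjusted p = 0.00538) and 780.1 ± 283 at 6 months (log2 1.36, SE 0.32, limma adjusted p = 0.00564), against 304 ± 113 before diabetes. It also differed from 2 weeks, by 1.59 at 3 months (limma adjusted p = 0.0266) and 1.43 at 6 months (limma adjusted p = 0.0157). The first of these calls ended in 5 of 9 omissions, those of 2-week replicates 1, 2 and 4 and 3-month replicates 2 and 3 (adjusted p up to 0.124). The second ended in 2 of 10, those of 2-week replicates 1 and 2.

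Chac1 (ENSRNOG00000014387), an enzyme that degrades glutathione, was called at 6 months and not at 3 months. It had 41.7, 58.5, 53.7, 74.4 and 43.1 before diabetes, 46.02, 33.9, 72.6 and 59.7 at 2 weeks and 66.5, 45.4, 37.8, 56.9 and 87.9 at 3 months. At 6 months it had 88.3, 231, 112, 107.5, 177 and 59.4. The first 3 stages overlapped, and 5 of the 6 livers at 6 months lay above the prediabetic one. The change at 6 months was 1.13 (SE 0.30, limma adjusted p = 0.0123), against 0.09 at 3 months. The step from 3 to 6 months was 1.04 (unadjusted p = 0.00249 and adjusted p = 0.632 in limma), so a difference between these stages did not pass. Livers 2 and 5 at 6 months, the highest for Atf3, were also the highest for Chac1.

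Sesn2 (ENSRNOG00000042785), a known ATF4 target that inhibits the growth kinase mTORC1, fell at 3 and 6 months. It had 2284, 2199, 1770, 2264 and 2806 before diabetes and 3139, 2169, 2005 and 1477 at 2 weeks. It had 1204, 1349, 1407, 750 and 1178 at 3 months, and at 6 months it ran from 894 through a median of 1243 to 1815. All 5 livers at 3 months and 5 of 6 at 6 months lay below the prediabetic range. The change was -0.96 (SE 0.21, limma adjusted p = 0.00497) at 3 months and -0.85 (SE 0.20, limma adjusted p = 0.00564) at 6 months, ratios of 0.514 and 0.555. Both calls held in every omission of 1 library. Against 2 weeks it was at -0.88 at 3 months (limma adjusted p = 0.0398) and -0.77 at 6 months (adjusted p = 0.0301), calls that ended in 7 of 9 and 5 of 10 omissions. The first held only without 2-week replicate 4 or 3-month replicate 5, and the second ended without 2-week replicates 1 or 2 or 6-month replicates 1, 2 or 6.

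Asns (ENSRNOG00000007546), the asparagine synthetase often used as an ATF4 readout, did not pass at any stage. It had 103, 46.4, 56.2, 49.8 and 50.1 before diabetes and 38.3, 44.1, 40.9 and 29.7 at 2 weeks, all 4 below the prediabetic range. At 3 months it had 459.7, 49.4, 79.5, 84.2 and 221, and at 6 months 209.8, 24.4, 131, 56.0, 131 and 47.1. Single livers stood several times above the prediabetic level while others lay within it, the highest being 9.30 times the lowest at 3 months and 8.59 times at 6 months. The change was -0.61 at 2 weeks (limma adjusted p = 0.820), 1.12 at 3 months (SE 0.55, adjusted p = 0.165) and 0.43 at 6 months (SE 0.52, adjusted p = 0.602). High Asns and high Atf3 coincided in some livers and not in others. At 6 months replicate 5, with the highest Atf3, had the second highest Asns (130.8). Replicate 2, with the second highest Atf3, had the lowest Asns.

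Vldlr (ENSRNOG00000027491), the very low density lipoprotein receptor, a reported ATF4-dependent gene in fatty liver, was low in all rats. It ran from 11.8 to 40.96 before diabetes, from 14.3 to 29.7 at 2 weeks, from 21.2 to 61.8 at 3 months and from 14.3 to 40.8 at 6 months. Of the 3-month livers 3 of 5 lay above the prediabetic range, and none at 6 months. The change was 0.68 at 3 months (SE 0.34, adjusted p = 0.178) and 0.13 at 6 months. A rat feature listed as Nupr1l1, a name that the RefSeq gene table gives as a synonym of Nupr1, had a mean of 3337 before diabetes and 3857 at 6 months (log2 0.21, adjusted p = 0.594). It was not counted among the members.

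Between the diabetic stages, 2 of 9 members were called from 2 weeks to 3 months (2.35% of all features; 1.15% higher, 1.2% lower), namely Trib3 and Sesn2. From 2 weeks to 6 months 4 of 9 were called (8.82% of all features; 4.66% higher, 4.16% lower), namely Trib3 and Chac1 (log2 1.19, limma adjusted p = 0.0284), Atf4 (log2 0.61, limma adjusted p = 0.0353) and Sesn2. The call of Chac1 ended in 4 of 10 omissions (2-week replicates 1 and 2, 6-month replicates 2 and 5) and that of Atf4 in 7 of 10, holding only without 2-week replicate 3 or 6-month replicates 1 or 4 (adjusted p up to 0.119). From 3 to 6 months 0 of 9 were called by limma (0.0147% of all features), with 1 at an unadjusted p under 0.05, Chac1. These comparisons have few 2-week livers: without 2-week replicate 1 or 2, 0 members were called against that stage at 3 or 6 months. With values scaled to equal library sums, the median change of all features was -0.18 from 2 weeks to 6 months and -0.15 from 3 to 6 months, against 0.00 and 0.01 as deposited. On that scale 399 features were called higher and 2102 lower from 2 weeks to 6 months, against 636 and 567 as deposited. Among all features at 6 months against prediabetes the calls were 1505 higher and 1370 lower as deposited, and 1059 and 2071 at equal library sums; at 3 months they were 1058 and 1190, against 1198 and 720. The members called at 3 and 6 months against prediabetes were called in the same direction on that scale.

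Some members had their highest value in the same library and others did not. Prediabetic replicate 2 had the highest Atf4, Atf5, Ddit3 and Trib3 of its stage. At 2 weeks replicate 3 had the highest Atf3, Atf4, Atf5, Trib3 and Chac1. At 3 months replicate 4 had the highest Atf3, Atf4 and Vldlr and the lowest Sesn2, while Trib3 was highest in replicate 3, Chac1, Atf5 and Ddit3 in replicate 5 and Asns in replicate 1. At 6 months Atf3 was highest in replicate 5, Chac1 in replicate 2, Atf4 and Trib3 in replicate 6, Asns and Vldlr in replicate 1 and Atf5, Ddit3 and Sesn2 in replicate 4. Over all 20 rat libraries the genes whose log2 values followed the members' mean z-score most closely were Crip2 (Pearson r = 0.858), Eif4ebp1 (0.857), Ckb (0.816), Hopx (0.814) and Crip1 (0.810), out of 11411 ranked. The score averages all tested members whatever their direction, so rising members and the falling Atf5 and Sesn2 partly offset each other in it. These libraries share stages, so r is given as a description.

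The rest of the pathway was examined in lists written out with earlier results of these data known. In the kinase and eIF2 list, 2 of 17 genes rose and 2 fell at 6 months, where 11% of all features rose and 10% fell, so the counts are near the share of all features. The median change was 0.01, the same as that of all features. Ppp1r15a, the phosphatase subunit that reverses eIF2 phosphorylation, rose from 470.2 ± 52.8 to 1395 ± 975 (log2 1.30, SE 0.35, limma adjusted p = 0.0141). Its highest values, 2063 and 3053, were in livers 2 and 5 at 6 months, as for Atf3 and Chac1. Impact, an inhibitor of the amino acid sensor GCN2, rose by 0.47 (limma adjusted p = 0.00536). Eif2ak1, the haem-regulated kinase, was at -0.38 (adjusted p = 0.00413) and Gcn1l1, the coactivator of GCN2, at -0.37 (adjusted p = 0.00464); both fell.

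Of 17 amino acid genes of the ATF4 programme, 2 rose and 3 fell at 6 months (median 0.42; 11% and 10% of all features), and 3 rose and 4 fell at 3 months (median 0.44; 7.76% and 8.72% of all features). Leaving out 1 library gave 0 to 4 rises and 2 to 4 falls at 6 months. Omissions that gave 0 rises included those of prediabetic replicate 5 and of 6-month replicates 3 and 5. At 3 months it gave 0 to 3 rises and 1 to 4 falls, with 0 rises without prediabetic replicate 4. The glutamine transporter Slc1a5 rose by 0.90 at 6 months (limma adjusted p = 0.0442), a call that ended in 7 of 11 omissions. Pycr1, of proline synthesis, rose by 0.79 (adjusted p = 0.0427) and ended in 7 of 11; it is named after its values were seen. The mitochondrial folate enzymes Aldh1l2 (log2 -1.54, limma adjusted p = 0.00212) and Shmt2 (log2 -0.45, adjusted p = 0.00318) fell, as did the alanine transaminase Gpt2 (log2 -0.71, adjusted p = 0.0245; ended in 4 of 11 omissions). Aldh1l2 went from 4166 ± 1123 to 1469 ± 486. At 3 months the serine synthesis enzyme Psat1 (log2 1.87, adjusted p = 0.0394), the transporters Slc7a1 (0.98) and Slc1a4 (0.94) rose and the aspartate transaminase Got1 (-1.65) fell with Aldh1l2, Gpt2 and Shmt2. Psat1, Slc7a1, Slc1a4 and Got1 are likewise named after their values were seen. Their 3-month calls ended in 7, 1, 6 and 6 of 10 omissions, and those of Aldh1l2 and Gpt2 in 2 and 5.

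Among other ATF4 and CHOP targets, 3 of 15 rose and none fell at 6 months (median 0.09), where 11% of all features rose and 10% fell. The 3 targets were Cebpd, a C/EBP factor of the acute phase (log2 1.502, limma adjusted p = 0.0414, ended in 9 of 11 omissions), Jdp2, a repressor of the AP-1 family (1.06, adjusted p = 0.0163), and Eif4ebp1, an inhibitor of cap-dependent translation (0.63, adjusted p = 0.00363). The hormones released under this response had lower values. Fgf21 was at 333 ± 174 before diabetes and 143 ± 126 at 6 months (log2 -1.74, SE 0.71, adjusted p = 0.0882). Gdf15 was at 451 ± 170 and 250 ± 181 (log2 -1.19, adjusted p = 0.215), and at -1.92 at 3 months (adjusted p = 0.0626); neither passed the test. Gdf15 at 3 months was called when prediabetic replicate 3 or 3-month replicate 3 was left out, in 2 of 10 omissions. Of 12 tRNA synthetases 1 rose at 6 months, Cars (log2 0.58, limma adjusted p = 0.0411), and this call ended in 8 of 11 omissions. That count is near the 11% of all features that rose.

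The endoplasmic reticulum list showed 1 rise and 2 falls of 20 genes at 6 months, with a median of -0.03. With 11% of all features higher and 10% lower, these counts do not exceed the share of all features. Hspa5, which encodes the chaperone BiP, was at 33415 ± 8175 against 35085 ± 7552 before diabetes (log2 -0.08, SE 0.18, adjusted p = 0.771). Xbp1, a transcription factor of the unfolded protein response, rose by 1.08 (limma adjusted p = 0.0412; ended in 7 of 11 omissions). Edem1 (log2 -1.03, adjusted p = 0.00683) and Sel1l (log2 -0.30, adjusted p = 0.0439; ended in 8 of 11) of protein degradation fell. Of 8 mitochondrial stress genes 1 fell, the protease Lonp1 (log2 -0.26, limma adjusted p = 0.0231, ended in 2 of 11). That count is near the 10% of all features that fell. At 3 months none of the last 3 lists had a called gene.

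**Figure D3:**
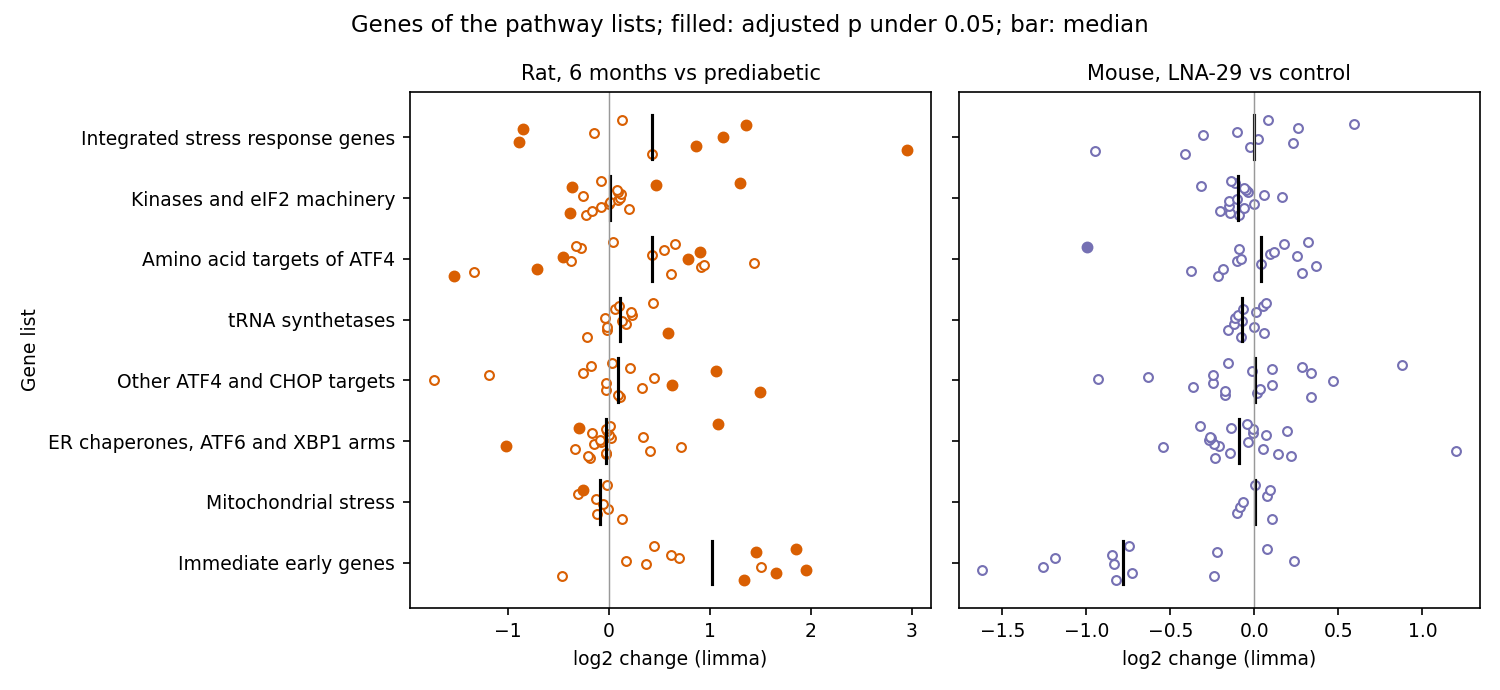
The log2 change of each tested gene (points) in the integrated stress response genes and 7 further lists, for rats at 6 months and for mice given LNA-29; filled points have an adjusted p under 0.05 and bars mark list medians. In rats the immediate early genes have a median of 1.02 and the endoplasmic reticulum list one of -0.03, and in mice 1 point is filled.

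Immediate early genes, which answer tissue handling, cytokines and growth signals within minutes and include AP-1 partners of ATF3, were examined beside Atf3. Of 12 genes 5 rose and none fell at 6 months (median 1.02), where 11% of all features rose and 10% fell. At 3 months 1 rose, Klf6 (log2 1.04, limma adjusted p = 0.0311, ended in 5 of 10 omissions). That count is near the 7.76% of all features that rose at 3 months. The risers at 6 months were Fos (log2 1.96, limma adjusted p = 0.0333), Myc (1.86, adjusted p = 0.00830), Egr1 (1.66, adjusted p = 0.00757), and Klf6 (1.46) and Btg2 (1.34), named after their values were seen. Fos had 440 and 4422 and Egr1 15415 and 15246 in livers 2 and 5 at 6 months. For Egr1 they were the highest of all rats; for Fos 1 liver at 3 months, with 444.5, lay between them. The summed list ran from 26404 to 38785 before diabetes and from 31849 to 109638 at 6 months. The call of Fos ended in 5 of 11 omissions and without liver 5 its change was 1.27. Fitted with only the groups compared, 3 of the 12 were called, Fos (adjusted p = 0.0973) and Btg2 (adjusted p = 0.0541) no longer passing. The part of these genes in the change of Atf3 was not tested.

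Markers of other cells also changed with the stages. Of all features 7.76% rose and 8.72% fell at 3 months, and 11% rose and 10% fell at 6 months. Of 6 Kupffer cell markers 5 rose at 3 months and 5 at 6 months (median 1.06 and 1.07), and their sum ran from 7299 to 11069 before diabetes, from 9764 to 24478 at 3 months and from 11045 to 30314 at 6 months. Of 5 lymphocyte and neutrophil markers 3 rose at 3 months and 4 at 6 months, with sums from 470.5 to 654 before diabetes and from 739 to 2847 at 6 months. Without 3-month replicate 1 the Kupffer count at 3 months was 2 and the lymphocyte and neutrophil count 2, and without prediabetic replicate 5 the latter was 2 at 6 months. At 6 months rises were also called for 2 of 6 stellate, 2 of 6 bile duct, 1 of 5 sinusoidal and 1 of 5 red blood cell markers. At 3 months they were called for 3 of 6 stellate, 1 of 6 bile duct, 1 of 5 sinusoidal and 1 of 5 red blood cell markers. The bile duct median was 1.17 at 3 months and 1.45 at 6 months, with 6 of 6 markers positive at both. Given the share of all features, 1 call in a list of 5 or 6 says little about that cell type. Of 6 hepatocyte markers 0 rose and 2 fell at 3 months (median -0.31), and 1 rose and 1 fell at 6 months (median 0.10). Their sum ran from 4807360 to 6644820 before diabetes, from 4053730 to 6738170 at 3 months and from 5274890 to 9066410 at 6 months. Of the adipocyte markers 1 was tested, Cidec, which fell, and of the pancreatic acinar markers none was tested, 3 of 5 being at 0 in every library. The part of these cells in the members' changes was not tested.

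In mice given LNA-29 against miR-29, 0 of 10 members were called by limma, where 2.43% of all features were (1.57% higher, 0.863% lower). A single member had an unadjusted p under 0.05, Trib3, against 2809 of 14596 features. The median change of the members was 0.00, and 5 of 10 were positive. No omission of a library and no alternative gave a called member.

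**Figure D4:**
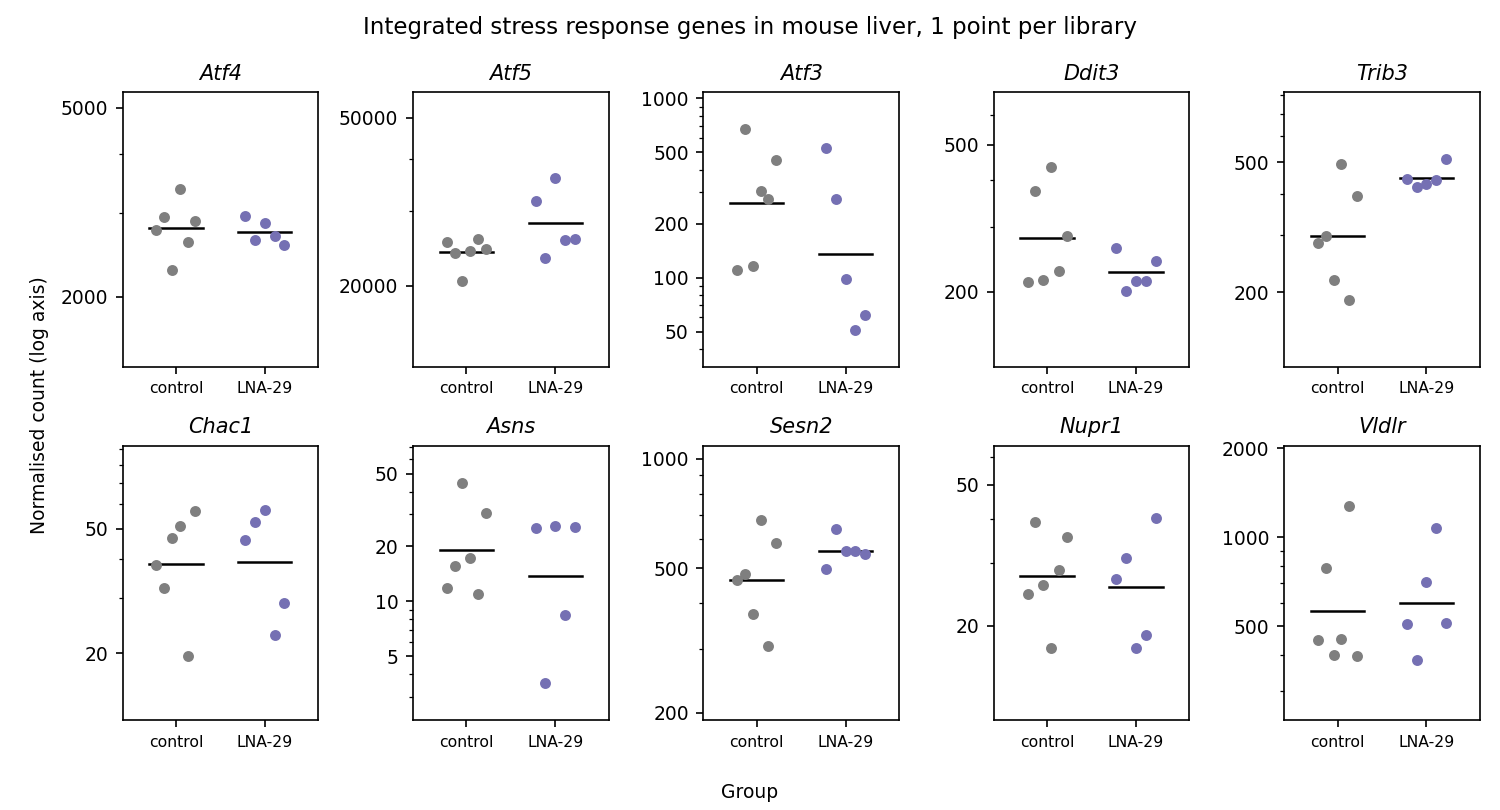
Normalised count (log axis) of each gene in every mouse library. Each point is 1 library and each bar the geometric mean of its group. The groups overlap for every gene, and Trib3 lies in a narrow band from 421 to 512 in the LNA-29 group.

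Trib3 (ENSMUSG00000032715) had 421, 428, 442, 444 and 512 in LNA-29 livers and ran from 190 through a median of 290.0 to 493 in controls. The treated livers lay in the upper part of the control range, 1 above it. The change was 0.59 (SE 0.21, unadjusted p = 0.0126, adjusted p = 0.138 in limma). Atf4 (ENSMUSG00000042406) was at 2746 ± 162 (n = 5) against 2812 ± 363 (n = 6), a change of -0.03 (SE 0.09, adjusted p = 0.909 in limma), and 0.012 with values scaled to equal library sums. Its mean differed by less than the spread of either group.

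Atf3 (ENSMUSG00000026628) had 529, 276, 98.8, 50.9 and 61.6 in LNA-29 livers, and controls ran from 110.0 through a median of 289 to 679. Of the treated livers 3 lay below the control range (log2 -0.95, SE 0.63, adjusted p = 0.441). Immediate early genes had lower values beside it, with a median of -0.78, 2 of 12 positive and 0 called; Fos was at -1.62 (adjusted p = 0.177). The summed list ran from 11835 to 67066 in treated and from 25560 to 73421 in control livers. Their part in the values of Atf3 was not tested.

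The other members also overlapped between the groups. Atf5 (ENSMUSG00000038539) was at 28471 ± 5240 against 24038 ± 1853 (log2 0.23, adjusted p = 0.273), with 3 of 5 treated livers above the controls. Ddit3 (ENSMUSG00000025408) was at 227 ± 25.4 against 291 ± 93.3 (log2 -0.31, adjusted p = 0.391), and Sesn2 (ENSMUSG00000028893) at 560.4 ± 51.9 against 482 ± 136 (log2 0.26, adjusted p = 0.434). Chac1 (ENSMUSG00000027313) was at 41.6 ± 15.0 against 40.7 ± 13.6. Asns (ENSMUSG00000029752) was at 17.7 ± 10.8 against 21.8 ± 13.2, with 3.55 in treated replicate 2. Nupr1 (ENSMUSG00000030717), a small chromatin protein of stressed cells, was at 26.9 ± 9.42 against 28.6 ± 7.90. Vldlr (ENSMUSG00000024924) was at 636 ± 269 against 626 ± 351, and 1 treated liver, with 1072, and 1 control liver, with 1277, stood above the rest. For each of these 4 genes the adjusted p was at least 0.716.

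Of the other pathway lists in mice, with 7 to 20 tested genes each, 1 gene was called in all, a lower one. As 0.863% of all features were called lower, that count is near the share of all features. Slc6a9, the glycine transporter, fell from 1284 ± 319 to 649 ± 186 (log2 -0.997, SE 0.19, limma adjusted p = 0.0230). Every treated liver, from 465 to 907, lay below every control liver, from 922 to 1855. How many of all features separate the groups in this way was not counted. The call ended in 2 of 11 omissions, those of LNA-29 replicates 3 and 5 (adjusted p up to 0.0653). Hspa5 was at -0.27 (adjusted p = 0.411), Fgf21 at 0.47 (adjusted p = 0.474), Gdf15 at -0.63 (adjusted p = 0.498) and Ppp1r15a at -0.11 (adjusted p = 0.837). Of the abundant genes taken as examples where a list had no call, Dnajc3, Ppp1r15b, Aars, Eprs, Sqstm1, Herpud1, Hsp90b1, Hspa9 and Hspd1 had changes between -0.24 and 0.10. Zfp36 was at -0.75 and Egr1 at -0.73. Among cell markers 1 of 6 stellate (Col3a1, log2 1.23), 1 of 6 sinusoidal (Clec4g, 0.47) and the 1 tested pancreatic acinar marker (Cela2a, 1.37, from 16.0 ± 6.48 to 41.2 ± 8.58) rose. Of all features 1.57% rose. Of the 6 acinar markers 4 were at 0 in every mouse library. Whether the number of any cell type changed was not tested. The genes nearest to the members' mean z-score over the 11 mouse libraries were Pir (r = 0.888), Rb1 (0.859), Pank4 (0.833), Ube2o (0.832) and Meaf6 (0.824), none of which is among the nearest in rats.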

How the data were processed

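Liver libraries were made with the Illumina TruSeq polyA+ kit, per the labels' protocols. The deposited signal values are gene-level counts that the authors normalised, with 1 table for 20 rat and 1 for 11 mouse libraries. The values are not whole numbers, so no count model was run. The submitters' processing notes name STAR, Salmon and DESeq2, and no source used here gives their versions or the role of each genome build. Features with a mean of at least 10 were kept, and log2(value + 1) was tested in limma 3.58.1 (R 4.3.3) with a variance trend, with all 4 rat stages in 1 fit, and with Benjamini-Hochberg adjustment over all features. On data simulated with independent noise for each gene, 81% of log2 changes of 1 were recovered at 6 months in rats and 82% in mice. False calls numbered 13 of 189 in rats and 10 of 187 in mice. The changed genes were drawn at random, so the rate need not hold for members of wide spread such as Atf3.

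The members and lists were chosen with earlier results of these data known. Named genes were the members, Fgf21, Gdf15, Ppp1r15a and Hspa5, up to 3 called genes per list and direction with the largest change and a mean of at least 50 (or the 2 most abundant where none was called), and the 5 genes nearest to the members' mean z-score. Alternatives were another pseudocount or filter, rescaling, the replicate block, fits with only the groups compared, and leaving out each library; scaling to equal library sums was added after seeing the data. The 53 small RNA libraries were not used here. Promoters came from RefSeq (GRCr8).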

Additional observations from a re-analysis of the deposited data

Results flagged for a closer look

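In groups of 4 to 6 livers, 1 library lay far from the others for 7 of 56 member and group pairs, by a test that chance alone meets in about 1 in 20 groups. In rats these were the highest Atf3 (1037) and the lowest Sesn2 (749.8) at 3 months, both in replicate 4, the highest Atf4 before diabetes (7622) and at 6 months (11045), and the highest Asns before diabetes (103). In mice they were the lowest Atf5 in controls (20533) and the highest Trib3 after LNA-29 (511.5).

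Members also differed between diabetic stages when the stages were tested against each other in limma. Trib3 differed from 2 weeks by 1.59 at 3 months and 1.43 at 6 months, Chac1 by 1.19 at 6 months and Atf4 by 0.61 at 6 months (log2). Sesn2 differed from 2 weeks by -0.88 at 3 months and -0.77 at 6 months. Every one of these calls ended in some omissions of 1 library. For 3 months these were 5 of 9 for Trib3 and 7 of 9 for Sesn2. For 6 months they were 2 of 10 for Trib3, 4 of 10 for Chac1, 7 of 10 for Atf4 and 5 of 10 for Sesn2.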

How the results depend on the processing

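Among the members, 994 of 1079 alternative values kept their direction and side of the threshold, 50 lost a call, 1 gained one and 34 changed sign. Median-of-ratios rescaling gave a factor of 1 for every library and so changed nothing. Its values, 1 for each of 64 changes, could not differ and are counted among the 994. Most of the 64 changes were not called, so most of the 994 are values that stayed uncalled. The 50 lost calls fall on the called changes alone. The causes of the changes below were not tested.

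Replicate numbers did not pair the libraries: same-numbered libraries correlated at -0.184 to 0.216 in rats and -0.077 to 0.125 in mice, and 3 of 19 and 1 of 10 were closest to their own number. With the replicate block, genes called numbered 195 (3 months against 2 weeks), 574 (6 months against 2 weeks), 1 (6 against 3 months) and 70 (LNA-29), members called numbered 1 and 2 in the first pair of these, and Chac1 at 2 weeks (0.00485) and Vldlr under LNA-29 (-0.020) changed sign. With the block Atf5 at 6 months was not called (-0.73, adjusted p = 0.110 in limma) and Gdf15 at 3 months was (-1.92, adjusted p = 0.0392). With only the groups compared, 162 genes and 0 members were called from 2 weeks to 3 months and 2 members from 2 weeks to 6 months. With no filter, 1 member was called from 2 weeks to 3 months and 212 genes under LNA-29. At equal library sums, 211 genes were called from 2 weeks to 3 months, 2501 from 2 weeks to 6 months and 182 under LNA-29 (143 higher and 39 lower), and the sign changed for Trib3 (0.0020) and Chac1 (0.022) at 2 weeks, Sesn2 from 3 to 6 months (-0.049) and Atf4 under LNA-29 (0.012).

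Leaving out 1 library gave 0 to 3 genes at 2 weeks, 1449 (without 3-month replicate 1) to 2393 at 3 months and 1920 to 3573 at 6 months against prediabetes. It gave 41 to 557 genes and 0 to 2 members from 2 weeks to 3 months, and 317 to 1717 genes and 0 to 4 members from 2 weeks to 6 months, each lowest count of genes without 2-week replicate 2. It gave 0 to 4 genes from 3 to 6 months and 120 (without LNA-29 replicate 3) to 540 under LNA-29. Changes that crossed 0 ranged as follows against prediabetes: at 2 weeks Trib3 -0.41 to 0.17, Chac1 -0.22 to 0.14 and Sesn2 -0.27 to 0.0932, at 3 months Chac1 -0.0702 to 0.23, and at 6 months Ddit3 -0.30 to 0.0705, Vldlr -0.11 to 0.32 and Hspa5 -0.17 to 0.0356. From 2 weeks to 3 months Chac1 ranged from -0.05 to 0.31 and Atf5 from -0.25 to 0.0893, and from 3 to 6 months Sesn2 from -0.0426 to 0.21. Under LNA-29 Asns ranged from -0.62 to 0.0232, Atf4 from -0.0845 to 0.0282, Chac1 from -0.17 to 0.21, Nupr1 from -0.26 to 0.0332 and Vldlr from -0.13 to 0.32.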
